A study of Mus musculus with 28 samples.

Results

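The one-colour arrays of this study hybridised the same 6 mouse livers at 2 amounts of labelled cDNA, called 1X and 1.5X in the labels, and they make up 12 of its 28 arrays. Members were chosen by array format and labelled input alone, with 6 arrays at 1X and 6 at 1.5X, and each liver was hybridised once at each input. The donors were male B6C3F1 mice with a labelled age of 42 days. 3 mice (phenobarbital mice 1 to 3) had phenobarbital at 0.05% in their drinking water for about 4 weeks, and 3 (control mice 1 to 3) had drinking water alone. All arrays of both inputs share the same starting material, which limits it as a model of fresh tissue: formalin-fixed, paraffin-embedded (FFPE) liver blocks stored for 16 years. Whole liver was extracted, so hepatocytes and the other liver cells were read together, and fewer cells of a type cannot be told apart from less RNA per cell. The RNA was isolated with an FFPE kit, turned into cDNA and amplified by the WTA2 whole-transcriptome kit, and labelled with the Cy3 dye by the Universal Linkage System, which attaches dye directly to nucleic acid.

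Formalin crosslinks RNA to protein and storage breaks it into short fragments, so archived tissue gives amplified cDNA that is partial and uneven along each transcript. On a hybridisation array the brightness of a probe reflects labelled cDNA that matches the probe, plus unspecific binding that negative-control probes estimate. Liver is a useful test tissue because hepatocytes make very large amounts of a few secreted proteins, such as albumin, and because phenobarbital acts through the nuclear receptor CAR to raise a known set of detoxifying enzymes, with Cyp2b10 the classic target.

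Levels are given as the log2 of the scanner software's background-corrected signal minus the 75th percentile of each array, taken over the probes that the software flagged as well above background on every one of the 12. A difference of 1 on this scale is 2-fold. A probe's brightness also depends on the probe itself, so ranks of genes by level describe signal range, not transcript abundance. The 6 arrays at 1X lay on 1 slide and the 6 at 1.5X on another, and each slide was scanned in its own session, so input, slide and scan session cannot be told apart within these arrays. The mice are separate animals, but p-values measure only the spread between mice at these 2 slides. The 16 two-colour arrays of the series crossed the sessions the other way, with 1.5X read in the session of one-colour 1X, and they are used at the end for that reason. Of 8 hepatocyte markers checked against the label, all were well above background on all 12 arrays.

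On these arrays the input labelled 1.5X did not go with more measured genes: fewer probes stood above background, and the negative controls were brighter. Slide and scan session changed with the input. In the two-colour Cy3 channel both ran the other way, with 39.4% of probes at 1.5X and 26.0% at 1X. The negative controls there had a mean of 42.7 units at 1.5X and 63.6 at 1X. At 1X the share of non-control probes flagged well above background ran from 44.2% to 51.9% with a median of 47.7%. At 1.5X it ran from 28.1% to 38.5% with a median of 32.7%. The 2 ranges did not overlap, and the share was lower at 1.5X in 6 of 6 mice. The mean was 48.0% ± 3.00 (SD, n = 6) at 1X and 32.9% ± 3.58 (SD, n = 6) at 1.5X, a mean paired difference of -15.1 percentage points (exact paired permutation test, two-sided, p = 0.03125, the smallest that 6 pairs allow, and 0.03125 after Benjamini-Hochberg adjustment over 6 array measures). The net signal of the 308 negative-control spots rose from a median of 45.7 ± 8.93 scanner units (SD, n = 6) to 193 ± 23.0 (SD, n = 6), a ratio of 4.41. The local background rose by a ratio of 1.88. On the same net scale the median of all other probes rose from 76.6 to 236 units, a ratio of 3.19. Over genes measured on all 12 arrays the 75th percentile of the unscaled processed signal rose by a ratio of 1.45, and the 99th percentile of the raw signal of all probes by 1.34. No spot was saturated, and the scanner's photomultiplier setting was the same on all 12 arrays.

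**Figure D1:**
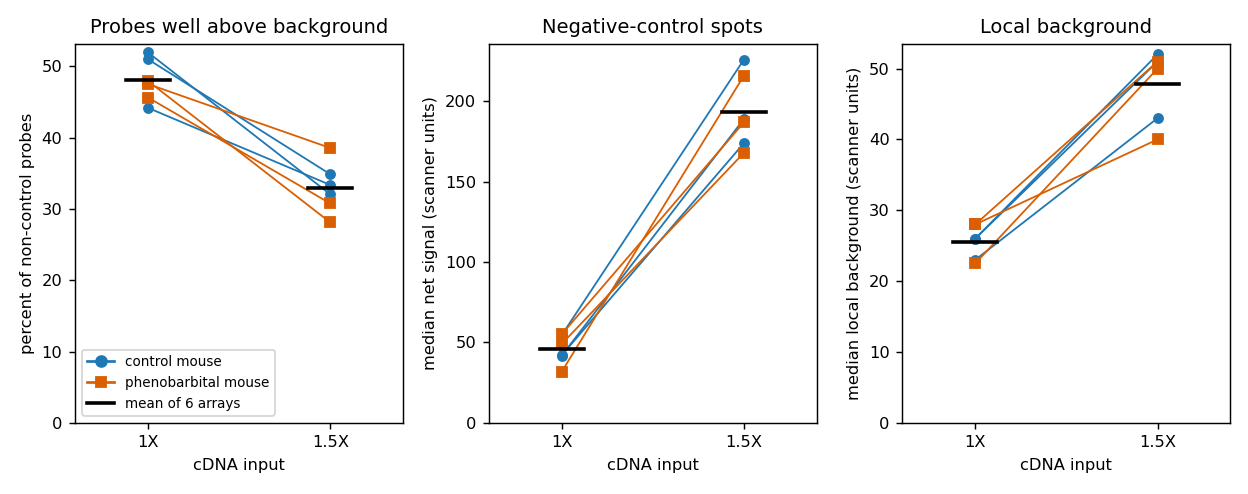
Share of probes well above background (percent), median net signal of negative-control spots and median local background (both in scanner units) for each array, by cDNA input; lines join the 2 arrays of a mouse, circles are control mice, squares are phenobarbital mice and black bars are means of 6 arrays. The share is lower at 1.5X in all 6 mice, with means of 48.0% and 32.9%, while the negative controls rise from a mean of 45.7 to 193 units.

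The probes that lost their call at 1.5X outnumbered those that gained one by far. Of 55630 probes, 2772 were well above background on all 6 arrays at 1X and on none at 1.5X, and 3 were the reverse. Among named genes the count was 746 against 2. The genes measured at 1.5X alone were Hes1, a transcriptional repressor downstream of Notch, and Ccnj, a cyclin. Hes1 was at least 3.93-fold and Ccnj at least 3.62-fold higher at 1.5X, and a second Ccnj probe, above background on 6 arrays at 1X and 2 at 1.5X, differed by -0.57. These bounds set the mean of the measured input against the lowest signal that counted as well above background at the other. On the 1X side the largest bounds were at least 13.6-fold for A930018P22Rik, 11.6-fold for Rhox3h, 11.6-fold for Gm10536, 10.6-fold for Gm16287 and 10.3-fold for Gal3st3, a galactose sulfotransferase.

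Several lists of genes known from other tissues lost most of their calls at 1.5X, while lists of liver and of general cell machinery lost few or none. Of 1356 olfactory, vomeronasal and taste receptor genes with a probe, 79 were well above background on all arrays at 1X and 7 at 1.5X. Among 24 male germ cell genes the counts were 8 and 2, among 33 neuronal genes 12 and 5, and among 25 lens and photoreceptor genes 1 and 0. Over all 37055 genes the share fell from 44.4% to 29.9%. All 35 hepatocyte secreted proteins, all 77 cytosolic ribosomal proteins, all 62 oxidative phosphorylation subunits and all 21 urea cycle and amino acid enzymes were measured on every array of both inputs. Phase II enzymes went from 29 to 27, triglyceride synthesis from 17 to 15 and fatty acid oxidation from 19 to 18, and among other tissues pancreas genes went only from 10 to 8. Vmn1r192, a vomeronasal receptor, was at least 2.88-fold brighter at 1X, Olfr1030, an olfactory receptor, at least 2.81-fold, and Gcg, which encodes glucagon, at least 2.64-fold. For the immediate early factor Fosb the bound was 2.32-fold, for the bile duct keratin Krt7 1.95-fold, and for the testis antizyme Oaz3 1.33-fold.

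Probes tiled on intergenic noncoding RNA intervals followed the same course more steeply than probes for RefSeq mRNAs. Of the interval probes 31.2% were above background on all 6 arrays at 1X and 14.5% at 1.5X, against 45.0% and 33.9% of mRNA probes. Among interval genes that entered the test, the median difference was -1.26. Among mRNA genes that entered it, the median was 0.09. A gene entered if its probe carried the above-background flag throughout the 6 arrays of either input, so genes measured at 1X alone had to be lower, and this median is a description. On probes measured on all 12 arrays, where that choice plays no part, 21.1% of interval probes and 6.11% of mRNA probes were more than 2-fold lower at 1.5X, and 2.65% and 9.54% more than 2-fold higher.

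For the level of each gene the question was which ones differ between the 2 inputs of the same liver. Of 16693 genes tested, 65.7% differed between inputs (10959 genes, limma with the mouse as a block, Benjamini-Hochberg adjusted p under 0.05). 4222 were higher at 1.5X (25.3%) and 6737 lower (40.4%), and the 6 arrays of one input did not overlap those of the other for 6534 genes (39.1%). More than 2-fold, 990 were higher and 4913 lower. On the 10860 genes measured on all 12 arrays the balance was the other way, with 3922 higher and 2507 lower, but more of the lower ones passed 2-fold (1281 against 839). At 1.5X, 137 of the tested genes carried the software's floor value on all 6 arrays and 2172 on 1 or more, so their differences are cut short and have no order. The split of directions depends on the scaling. Of the calls, 38.5% were higher here, 56.6% with the percentile over all probes, 62.9% with no scaling, 50.6% with quantile normalisation and 50.4% with normexp correction and quantile normalisation. The median difference of all tested genes was -0.13, 0.20, 0.41, 0.07 and 0.04 in the same order. In all 5 scalings 4198 genes were higher and 4555 lower, of which 569 and 1676 were more than 2-fold.

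**Figure D2:**
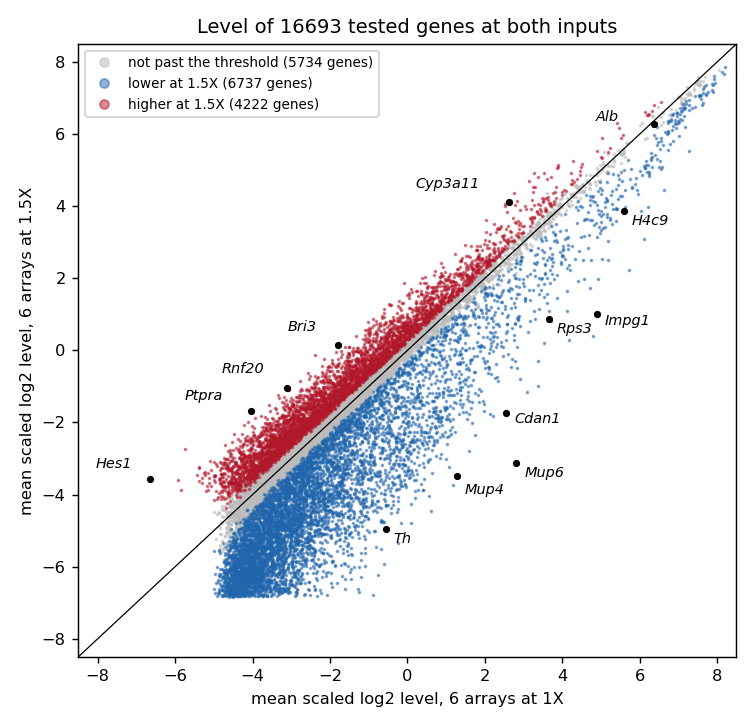
Mean scaled log2 level of each of the 16693 tested genes over 6 arrays at 1X (horizontal) and 6 at 1.5X (vertical), with the diagonal of no difference; red, 4222 genes higher at 1.5X, blue, 6737 lower, grey, not past the threshold. The lower genes lie far from the diagonal over most of the range, the higher ones in a narrow band above it, and the straight lower edge is the floor value that the software gives to spots with no significant net signal.

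Among genes with a symbol that were measured on all 12 arrays, the largest falls were those of a pair of major urinary protein probes. These proteins are pheromone carriers that male liver secretes in bulk. The level of Mup6 was 2.39, 2.84 and 3.25 at 1X and -3.43, -3.04 and -2.85 at 1.5X (lowest, median and highest of 6 arrays, as in all such triplets below). The 2 inputs did not come near each other, and the mice differed among themselves by less than 1 unit. The difference was -5.93 ± 0.10 (SE, n = 6 mice; limma adjusted p = 1.31e-07), and it lay between -6.22 and -5.76 in each mouse. Mup4 fell from a median of 1.32 to -3.58, a difference of -4.76 ± 0.11 (limma adjusted p = 4.37e-07), lower in 6 of 6 mice. A second Mup4 probe was above background on no array. The Mup genes are near-identical copies, so a probe may read several of them and the gene names are uncertain. Of the 7 Mup genes measured, Mup6, Mup4 and Mup5 (-1.66) were lower in all 5 scalings tried. Mup3 (-0.57) and Mup2 (-0.38) passed as lower in this scaling alone, and Mup2 was at 0.15 with no scaling and 0.017 after normexp correction and quantile normalisation. Mup20 differed by 0.42 (adjusted p = 0.144) but passed as higher in the other 4 scalings, by 0.75 to 0.95, and in this one without phenobarbital mouse 1, by 0.68. Mup21 differed by -0.0016 (adjusted p = 0.99). Probes of this one family thus ranged from -5.93 to 0.42.

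Several of the other leading genes on the lower side are known for roles outside liver. Cdan1, the gene of a congenital anaemia, was at 2.30, 2.49 and 2.86 at 1X and at -2.09, -1.69 and -1.43 at 1.5X. It differed by -4.28 ± 0.11 (SE, n = 6 mice; limma adjusted p = 4.37e-07), with every array at 1.5X below every array at 1X. A second Cdan1 probe, above background on 5 arrays at 1X and 4 at 1.5X, differed by 0.05. Impg1, a proteoglycan of the matrix around photoreceptors, was at 4.51, 4.79 and 5.40 at 1X. At 1.5X it was at 0.67, 0.80 and 1.80, a difference of -3.89 ± 0.12 (SE, n = 6 mice; limma adjusted p = 4.78e-07), and its rank among the 10860 genes went from the 97.4th to the 83.6th percentile. It stayed above background on every array. Cbln2, a synaptic organiser, was lower by -4.38, Krtap10-4, a hair keratin-associated protein, by -4.33, and Aanat, an enzyme of melatonin synthesis, by -4.09. Rab3c, a synaptic vesicle GTPase, was lower by -4.01, and a second probe of it, measured on 6 arrays at 1X and 3 at 1.5X, by -3.96. The antisense RNA gene Pitpnm2os1 (-3.87), the sterol-binding protein Osbp2 (-3.83), the lysosomal targeting enzyme Nagpa (-3.76) and the epidermal transglutaminase Tgm3 (-3.70) complete the 12 largest among genes with a symbol measured on all 12 arrays, each lower in 6 of 6 mice with no overlap and in all 5 scalings. A second Tgm3 probe was above background on no array, and a second Osbp2 probe on 1 array at 1X and none at 1.5X.

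The genes higher at 1.5X moved less, and several lay low in the signal range at 1X. Ptpra, a receptor tyrosine phosphatase, was at -4.42, -4.10 and -3.37 at 1X and at -2.14, -1.60 and -1.37 at 1.5X. It differed by 2.37 ± 0.16 (SE, n = 6 mice; limma adjusted p = 6.15e-06), the largest among the higher genes measured on all 12 arrays and with a symbol, and its rank went from the 1.59th to the 45.4th percentile. Rnf20, a ubiquitin ligase for histone H2B, was at -3.42, -3.12 and -2.87 at 1X and at -1.31, -1.01 and -0.83 at 1.5X. It differed by 2.06 ± 0.13 (SE, n = 6 mice; limma adjusted p = 5.63e-06), again without overlap. Bri3 was at -2.23, -1.79 and -1.34 at 1X and at 0.05, 0.13 and 0.28 at 1.5X, a difference of 1.94. Its second probe went the other way, by -1.05. The rest were Txndc11 (2.14), the mitochondrial NAD kinase Nadk2 (2.11), the transcription elongation factor Mllt1 (2.06), the Y-linked initiation factor subunit Eif2s3y (1.99), the ribosomal-protein-like Rpl7l1 (1.98), the ubiquinone enzyme Coq2 (1.96), the methionine sulfoxide reductase Msra (1.96), the GM3 synthase St3gal5 (1.96) and the kinase Cdk12 (1.93). All 12 were higher in 6 of 6 mice and in all 5 scalings. A second Cdk12 probe, also above background on all 12 arrays, differed by 0.19. A second Txndc11 probe, above background on 6 arrays at 1X and 2 at 1.5X, differed by -0.14.

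**Figure D3:**
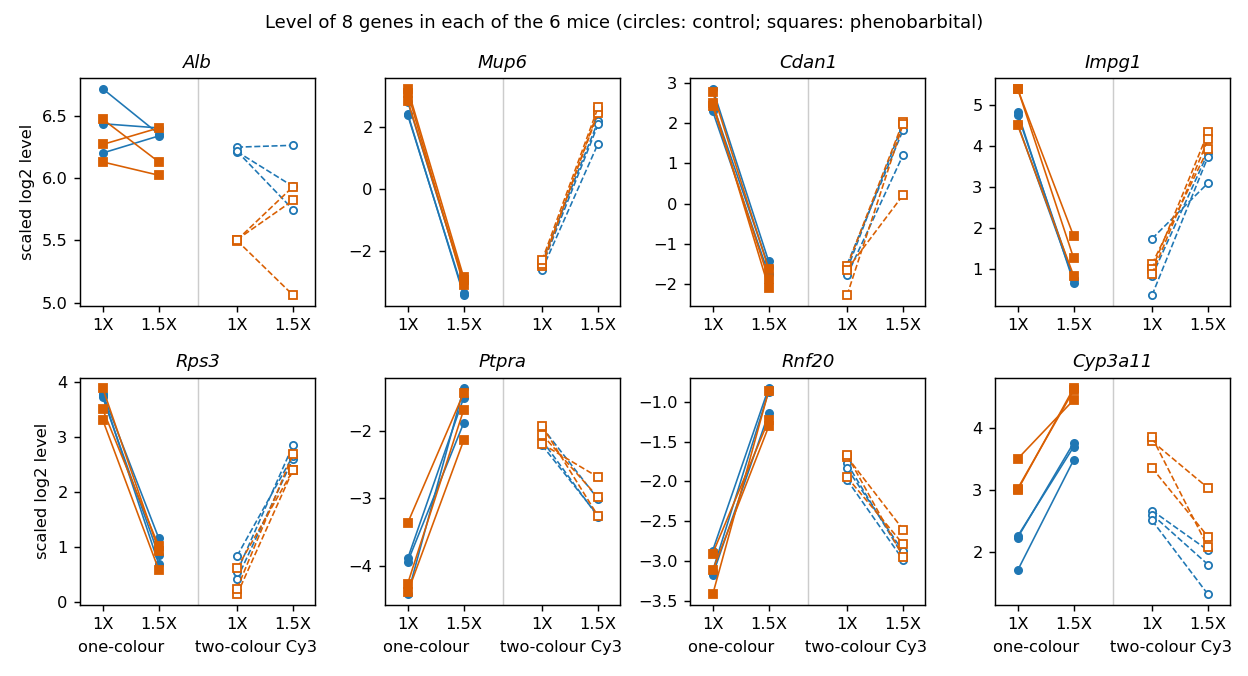
Scaled log2 level of 8 genes in each of the 6 mice at 1X and 1.5X, one-colour arrays with filled symbols at the left of each panel and the Cy3 channel of the two-colour arrays with open symbols at the right; circles are control mice and squares phenobarbital mice. For Mup6, Cdan1, Impg1 and Rps3 every line falls in the one-colour arrays and rises in the two-colour arrays, for Ptpra, Rnf20 and Cyp3a11 the reverse, and Alb has no common direction in either.

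Genes often used to check a liver library moved less than 0.5 log2 unit for the most part, and whether they passed the threshold depended on the scaling. Alb, which encodes serum albumin, was at 6.13, 6.35 and 6.72 at 1X and at 6.02, 6.35 and 6.40 at 1.5X, with the inputs overlapping throughout. Its difference was -0.10 ± 0.11 (SE, n = 6 mice; limma adjusted p = 0.473), and that of Apoa1, the main protein of HDL, -0.06. Cyp2e1, a P450 of the pericentral zone, differed by -0.21 and Glul, the pericentral glutamine synthetase, by -0.19, and Gapdh by -0.22. None of these 5 passed the threshold here, each turned to a value above 0 under at least 1 other scaling, and Apoa1 then passed as higher in 4 of 5 scalings and Alb in 2. The urea cycle enzyme Cps1 (0.04), the thyroxine carrier Ttr (0.24) and Actb (0.08) did not pass it here either, but Ttr and Actb passed as higher in the other 4 scalings, Actb by 0.41 to 0.61, and Cps1 in 2. Rplp0, a ribosomal stalk protein often used as a reference gene, did: it was higher by 0.68 ± 0.10 (SE, n = 6 mice; limma adjusted p = 0.000443) in 6 of 6 mice without overlap. Its 2 other probes differed by -0.94 and 1.63, and the 7 Gapdh probes by -1.13 to 0.23. Malat1, a nuclear noncoding RNA, was lower by -0.96 ± 0.16 (limma adjusted p = 0.000925) and was above background on 6 arrays at 1X and 4 at 1.5X. It was tested because it was measured throughout at 1X, a choice that favours a fall.

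Gene lists were read against all tested genes, of which 25.3% were higher, 40.4% lower and the median difference was -0.13. The entry rule lowers that median, since 5607 tested genes were measured throughout at 1X but not at 1.5X, and 226 the reverse. Over the genes measured on all 12 arrays the median was 0.14. Liver metabolism lay above -0.13, but secreted proteins and urea cycle and amino acid genes, measured on every array, lay below 0.14. Of 19 tested fatty acid oxidation genes 12 were higher and none lower, with a median of 0.41, led by Hadh (1.48), the short-chain hydroxyacyl-CoA dehydrogenase, and Cpt2 (1.41), the inner carnitine palmitoyltransferase. Hadhb, of the trifunctional protein, was higher by 0.97. The second Cpt2 probe differed by -0.13. Of 22 cholesterol synthesis genes 12 were higher and 2 lower (median 0.27). The isomerase Idi1, above background on 5 arrays at 1X, was higher by 1.61 and the reductase Hsd17b7 by 1.46, while a second Hsd17b7 probe differed by 0.07. Idi1 entered the test through 1.5X, which favours a rise. Gluconeogenesis and glycogen genes counted 7 higher and 1 lower of 14, with the glycogen phosphorylase Pygl at 1.30. Bile acid genes counted 7 higher and 1 lower of 15, with the bile salt pump Abcb11 at 0.95 and the lower one, the uptake carrier Slco1a1, at -2.19. Slco1a1 was above background on 6 arrays at 1X and 2 at 1.5X, so it entered the test through 1X, which favours a fall. Of 17 genes of fatty acid and triglyceride synthesis, 6 were higher and 1 lower, with the triglyceride enzyme Dgat2 at 1.10. Urea cycle and amino acid genes were mixed, 4 higher and 3 lower of 21 (median 0.04): the transaminase Got1 was at 1.41, but Hgd, which opens the homogentisate ring, at -1.18. Of 35 hepatocyte secreted proteins 9 were higher and 3 lower (median 0.10), led by the lipid-binding glycoprotein Apoh at 1.58.

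The general cell machinery also lay above the median of all tested genes, -0.13. Over genes measured on all 12 arrays, as all ribosomal and oxidative phosphorylation genes were, the median was 0.14. Ribosomal proteins lay close to that value. Of 62 oxidative phosphorylation subunits 32 were higher and 2 lower, with a median of 0.29 that ranged from 0.19 to 0.53 over the 6 mice. Ndufb2 of complex I was higher by 1.75, Uqcrfs1, the Rieske protein of complex III, by 1.66, and Atp5j of the ATP synthase by 1.65. Spliceosome and RNA-binding genes counted 18 higher and 3 lower of 31 (median 0.35), from Snrpd1 at 2.15 and Hnrnpm at 1.63 to Snrpa, a U1 protein, at -1.67. Snrpd1, above background on 5 arrays at 1X, entered the test through 1.5X, which favours a rise. Its second probe, above background on 4 arrays at 1X and 5 at 1.5X, differed by 1.28. Proteasome subunits counted 13 higher and 3 lower of 29, with the lid-base scaffold Psmd1 at 1.47, and translation factors 11 higher and 1 lower of 32. Of 77 ribosomal proteins 30 were higher and 5 lower (median 0.16). Rps3, a small-subunit protein, went against the list, from a median of 3.74 at 1X to 0.89 at 1.5X, by -2.79 ± 0.11 (SE, n = 6 mice; limma adjusted p = 9.9e-07), and its second probe by -2.51. Rpl6 was higher by 1.19 and Rpl13 by 1.18. Further probes of Rpl6 differed by 0.27, -0.04 and -0.63, and 2 further probes of Rpl13 by -0.50 and -1.08. Of 25 liver transcription factors and nuclear receptors 8 were higher and 3 lower, with Hnf4a, a master regulator of hepatocyte genes, at 1.24 and the oestrogen receptor Esr1 at 1.20, whose second measured probe differed by -0.08. Cell cycle genes counted 4 higher and none lower of 11, with the replication helicase subunit Mcm3 at 1.27.

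Lists below the median of all genes were those of several other tissues, a few blood cell types, the urinary proteins and, by little, the histones. All 79 tested receptors for smell and taste and all 8 tested male germ cell genes entered through 1X, where they were measured on every array, against 7 and 2 at 1.5X. That rule sets their direction, so their counts (75 and 7 lower) and medians (-2.16 for both lists) describe the choice as much as the genes. Of 12 neuronal genes, all measured at 1X and 5 at 1.5X, 8 were lower and 3 higher (median -1.37). Those not measured throughout at 1.5X entered through 1X, which sets their direction. The 4 measured on every array of both formats had a one-colour median of -0.26, as processed for the comparison of formats. Single genes measured at both inputs fell further. Grin2b, an NMDA receptor subunit, was at 1.45, 1.71 and 1.89 at 1X and at -1.18, -0.94 and -0.35 at 1.5X, above background on all 12 arrays, with a difference of -2.53 ± 0.11 (SE, n = 6 mice; limma adjusted p = 1.21e-06). Prm2, a sperm protamine, was also measured on all 12 arrays and was lower by -3.37 ± 0.35. A second Grin2b probe was above background on no array. Th, the first enzyme of dopamine synthesis, and the receptor Olfr1410 were above background on 6 arrays at 1X and 1 at 1.5X. Of 32 replication-dependent histones, also near-identical copies, 12 were lower (37.5%, against 40.4% of all tested genes) and 4 higher (12.5%, against 25.3%). Their median of -0.16 was close to the -0.13 of all tested genes and ran from -0.59 to 0.17 over the mice. H4c9, at a median of 5.56 and then 3.88, was lower by -1.72 and H1f2 was higher by 1.53. Trp63, a squamous epithelial factor, was at a median of 4.37 and then 3.96, lower by -0.39 in this scaling alone and 0.15 higher with none. Its second probe was above background on no array.

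Few markers of the other cells of a liver were tested, and their calls stand beside 25.3% higher and 40.4% lower over all tested genes. Of 8 tested Kupffer cell and macrophage genes 2 were higher and none lower (median -0.04), with the complement subunit C1qc at 0.88. Of 7 endothelial genes 2 were higher and 1 lower, with the lymphatic and sinusoidal receptor Lyve1 at 1.33 and the VEGF receptor Kdr at -0.58. None of 5 stellate cell and fibroblast genes passed the threshold. Of 3 cholangiocyte genes 2 were higher, the keratin Krt19 by 0.35 and Epcam, and 1 lower, Krt7, measured at 1X alone. The Krt19 call was lost under some settings, among them without control mouse 3, without phenobarbital mouse 1 and with no mouse block. Of 3 T, B and NK cell genes 2 were lower, Cd4, above background on 3 arrays at 1.5X, by -1.84 and Nkg7 by -1.41. A second Nkg7 probe, above background on 1 array at each input, differed by 0.84. Krt7 and Cd4 entered the test through 1X, which sets their direction. No neutrophil gene of 5 was above background on all arrays of either input. Of 35 lists with a tested member, 25 lay above the median of all genes and 10 below. With no filter on dim probes 15 lay above, and with only genes measured on all 12 arrays 19. In that last setting the lens and photoreceptor list had no member. A shift common to all genes cannot move a list against that median, and under the 2 settings with quantile normalisation 33 lists kept their side, the Kupffer and stellate lists being the exceptions.

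**Figure D4:**
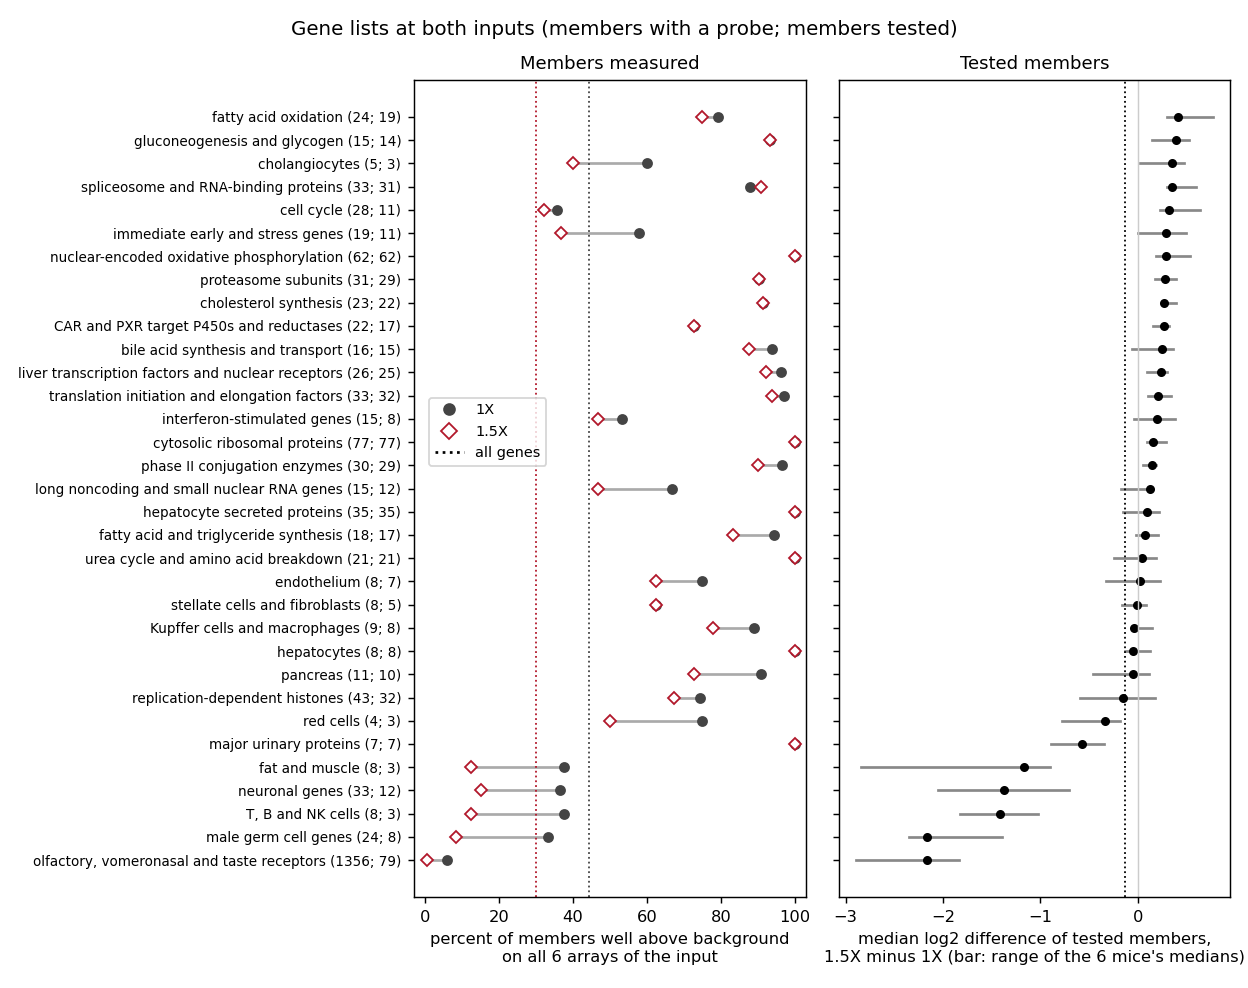
Left, percent of each list's members well above background on all 6 arrays at 1X (filled circles) and at 1.5X (open diamonds), with dotted lines for all genes (44.4% and 29.9%); right, median log2 difference of the tested members, 1.5X minus 1X, with bars from the lowest to the highest of the 6 mice's medians and a dotted line for all tested genes (-0.13). Members with a probe and members tested stand in parentheses, the lists of liver metabolism and cell machinery sit to the right of the line, and the neuronal, germ cell and receptor lists sit far to its left. The entry rule lowers that line, and over genes measured on all 12 arrays the median was 0.14.

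Probes of one gene often disagreed. Of 1320 genes with 2 or more probes measured on all 12 arrays, the differences spanned more than 1 log2 unit in 338, and in 66 one probe was below -1 while another was above 0. Across the 1154 genes with exactly 2 such probes, the differences of the pair had a Pearson r of 0.12 and a Spearman rho of 0.05 (across genes, which are not independent replicates). The levels of the pair at 1X had an r of 0.36. Cyp3a11, the main inducible steroid-oxidising P450 of mouse liver, gave an example: one probe was higher at 1.5X by 1.49 ± 0.13 (SE, n = 6 mice; limma adjusted p = 1.99e-05) and another, also above background on all 12 arrays, by 0.01. The differences thus had little in common between probes of one gene. Levels of replicate spots of one probe on one array were close, with a median SD of 0.0914 log2 unit at 1X and 0.0716 at 1.5X. That SD covers 123 probes and does not measure the difference between inputs.

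Signal range told little by itself. The 10860 genes measured on all 12 arrays were cut into 5 equal groups by mean level, from dimmest to brightest. Their median differences were 0.24, 0.10, 0.09, 0.18 and 0.06, with an SD over the 6 mice of 0.04 to 0.08. In the brighter 4 groups 13.0% to 15.4% of genes were more than 2-fold lower, and 4.28% in the dimmest. A dim gene that falls this far is no longer above background at 1.5X and leaves the set, so the low share of the dimmest group is built in by the filter. The share more than 2-fold higher was 10.1% in the dimmest and 4.70% in the brightest group, where the same filter removes dim genes not measured at 1X. Among the 4 brighter groups, large falls were about as frequent in each. The width of the signal distribution between the 10th and the 90th percentile was 5.40 ± 0.11 at 1X and 5.25 ± 0.08 at 1.5X (SD, n = 6), narrower in 6 of 6 mice by 0.15 on average (exact paired permutation test, two-sided, p = 0.03125). Between the 25th and the 75th percentile it differed by -0.04 (exact p = 0.1875). By place on the array, 4 bands of rows and 4 of columns had medians of 0.12 to 0.16.

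The response to phenobarbital was read at each input and compared by a test of the difference itself. Cyp2b10 was above background on 0 of 3 control arrays and 3 of 3 phenobarbital arrays at each input. It was at least 31.0-fold higher with phenobarbital at 1X and at least 18-fold at 1.5X, bounds set by the dimmest measurable signal. Its phenobarbital level was -0.85, -0.62 and -0.12 at 1X and -1.01, -0.25 and 0.07 at 1.5X, which overlap. Cyp2c55, another P450 of the same response, rose by 3.62 at 1X and 3.83 at 1.5X, the glutathione transferase Gstm3 by 2.91 and 3.02, and Por, the reductase that feeds electrons to the P450s, by 2.44 and 2.34. These responses were nearly equal although each probe used was itself higher at 1.5X, that of Cyp2c55 by 0.62, Gstm3 by 0.69 and Por by 0.98. A second Gstm3 probe, also above background on all 12 arrays, differed by -0.14. Cyp3a11 rose by 1.11 and 0.92. Of the 17 tested CAR and PXR target genes 9 were higher at 1.5X and 3 lower (median 0.27), with Cyp3a16 at -3.29 and above background on 4 arrays at 1.5X. Cyp3a16 thus entered the test through 1X, which favours a fall. Across the array, 0% of 16693 genes had a response that differed between inputs (0 genes, limma, smallest adjusted p = 0.432), with 846 genes, 5.07%, at an unadjusted p under 0.05. Among those with the smallest p-values was the transcript XM_003084505, with a response of 0.36 at 1X and 1.69 at 1.5X, a difference of 1.33 ± 0.22 (SE; limma adjusted p = 0.82), above background on all 12 arrays. 3 others were noncoding intervals. With 3 mice in each arm, a small dependence on input could not be detected.

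Arrays resembled each other more within an input than within a mouse. Over the 10860 genes the median correlation of 2 mice was 0.971 at 1X and 0.973 at 1.5X, against 0.904 for the same mouse at the 2 inputs. The spread between mice was slightly smaller at 1.5X, with a median SD over control mice of 0.220 at 1X and 0.195 at 1.5X, and over phenobarbital mice of 0.266 and 0.243.

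The two-colour arrays held the same 6 livers with Cy3 in one of their channels, and their input difference ran the other way. The Cy3 channel of 8 arrays at 1.5X and 6 of the 8 at 1X was used, since the labels of the other pair disagree on their mouse. There 39.4% ± 3.37 of probes were above background at 1.5X (SD, n = 8 arrays) and 26.0% ± 3.41 at 1X (SD, n = 6 arrays). The 8 arrays at 1.5X held 6 livers, with control mouse 2 and phenobarbital mouse 1 read more than once, so that SD is over arrays, not mice. Of 13394 genes, 63.5% differed between inputs (limma, adjusted p under 0.05), 2257 higher (16.9%) and 6254 lower (46.7%). This split depends on the processing: with the scanner's processed signal 10624 genes passed, 8960 of them higher, and with quantile normalisation 8978, of them 4194 higher. Mup6 was higher at 1.5X by 4.67, Cdan1 by 3.28, Impg1 by 2.86 and Rps3 by 2.13, while Ptpra was lower by -0.999, Rnf20 by -1.04 and Cyp3a11 by -1.04. Each of these has the sign opposite to that on the one-colour arrays. Across 8556 genes measured on all arrays of both formats, the 2 differences had a Pearson r of -0.89 and a Spearman rho of -0.84. Of 3151 genes higher at 1.5X on one-colour arrays, 2792 were lower on two-colour arrays and 11 higher, and of 1819 lower ones 1226 were higher and 23 lower. In 3754 genes all 6 mice of each format went opposite ways, and in 20 the same way. These counts by sign hold for this scaling, while the correlations are not moved by a shift common to all genes.

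**Figure D5:**
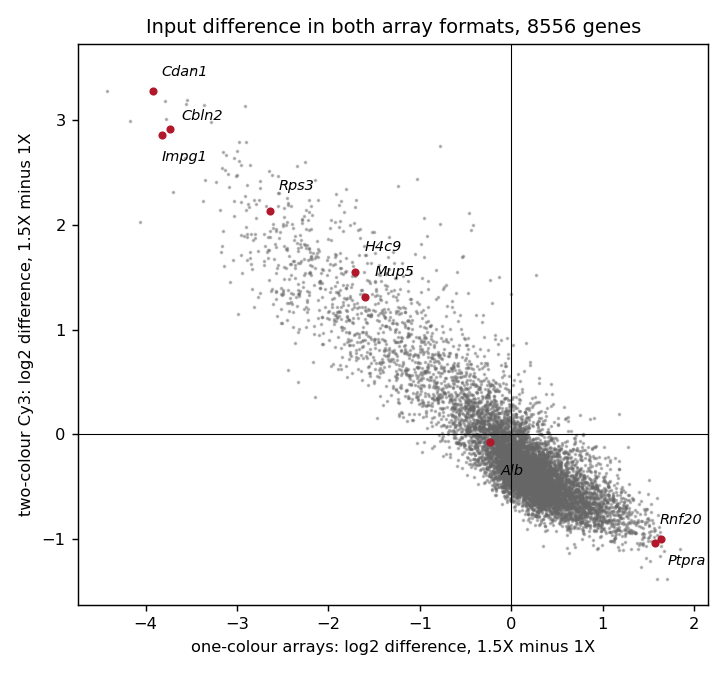
Log2 difference between inputs, 1.5X minus 1X, for 8556 genes, on one-colour arrays (horizontal) and in the Cy3 channel of two-colour arrays (vertical), both with normexp background correction. The points run from the upper left, with Cdan1, Cbln2 and Impg1, to the lower right, with Ptpra and Rnf20, and Alb lies near the origin.

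Levels grouped by scan session rather than by labelled input. Mean levels at one-colour 1X correlated at 0.994 with two-colour 1.5X, and one-colour 1.5X at 0.984 with two-colour 1X, both pairs read in one session. The other 4 pairings of the sets correlated at 0.918 to 0.951. In a fit over both formats with a term for input and a term for session, chosen after seeing the data, 30.5% of the 8556 genes differed by input (2610 genes; 672 higher, 7.85%, and 1938 lower, 22.7%) and 81.2% by session (6944 genes; 5030 higher in the second session, 58.8%, and 1914 lower, 22.4%; limma, adjusted p under 0.05). The median size of the difference was 0.119 for input and 0.368 for session. More than 2-fold, there were 887 genes by session and 1 by input. This was the transcript AK014704, named after its value was seen, at -1.01 ± 0.13 by input and -3.04 ± 0.13 by session. For Cdan1 the input term was -0.32 and the session term -3.60, for Impg1 -0.48 and -3.34, for Ptpra 0.32 and 1.32, and for Rnf20 0.27 and 1.31. The part that input kept was thus small for each of the leading genes. The session term is the same contrast as an input effect that differs between formats, so those 2 readings cannot be told apart, and the slide changes with both. Input labels exchanged in one format would give the same values, with the sign of each input difference in that format turned, and cannot be told apart from them either.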

How the data were processed

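The authors deposited Agilent Feature Extraction 11.0.1.1 scanner output, per the file headers, whose processed signal is a background-corrected intensity per spot on a linear scale, not normalised between arrays. The authors' deposited value table holds the same processed signals as intensity values and was used as an alternative. From these, log2 intensities were averaged over the spots of a probe, without control or outlier spots (51 probes left out), and scaled by each array's 75th percentile over probes flagged above background on all 12. Names were updated through RefSeq accessions, and 27205 of 55630 probes had a symbol. A gene was read by its probe of highest mean signal, and was tested if well above background on all 6 arrays of either input. Genes were tested in limma 3.58.1 (R 4.3.3) with the mouse as a block, and array measures by exact permutation. The two-colour Cy3 channel was normexp-corrected (offset 50). Mouse numbers in the labels pair the arrays, since both come from one animal: same-mouse deviations correlated at 0.26 to 0.67. For control mouse 2 the best other mouse correlated slightly higher, at 0.27 against 0.26. In every other mouse its own array correlated best. The program was tested on simulated data. Figures were drawn with matplotlib 3.10.9. The gene lists and the genes followed were chosen with earlier results of these data known. Genes named are the 12 largest each way measured on all 12 arrays with 1 sign in 6 mice, the 5 largest bounds each way, the 5 smallest p-values for the response by input, a panel of 16 genes and up to 3 largest members of each list. Array number limits the precision. Probe sequences were not used here. A few genes that this rule names are not reported here.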

Additional observations from a re-analysis of the deposited data

Results flagged for a closer look

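In each group of 6 mice the one farthest from the rest was looked at for 131 per-mouse differences and array measures, and 7 stood apart by Dixon's criterion, which marks about 1 group in 20 by chance. Phenobarbital mouse 2 accounted for 4 of them. Its difference between inputs was 2.89 for Eif2s3y, against 1.67 to 1.95 in the other 5 mice, and -5.16 for Mup4, against -4.75 to -4.61. For Ccnj it was 4.05, against 1.80 to 2.21, and for Cps1 -0.55, against 0.02 to 0.29. Phenobarbital mouse 1 stood apart for Mup20, at -0.88 against 0.39 to 1.00, and for Por, at 0.76 against 1.01 to 1.07. Phenobarbital mouse 3 stood apart for Krt19, at 0.022 against 0.32 to 0.48. The directions of Eif2s3y, Mup4, Ccnj, Por and Krt19 were the same in all 6 mice.

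The 2 array formats differed in the direction of the input difference. In 3754 of 8556 genes every one of the 6 mice of the one-colour arrays went one way and every one of the two-colour arrays the other. The test of that difference, which is the same contrast as the scan session, passed the threshold for 6944 genes (limma adjusted p under 0.05).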

How the results depend on the processing

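The number of genes differing between inputs, 10959, stayed within 1.5 times under every scaling, with any 1 mouse left out (10004 to 10632), with all probes in place of 1 per gene (13819) and over the 4 mice at the same slide position (9640). It was 6768 with only genes measured on all 12 arrays (2610 lower), 21587 with no filter (12486 higher) and 2610 over both formats with the session as a term, a fit chosen after seeing the data (672 higher, 1938 lower). The number higher was 7182 with the percentile over all probes and 8196 with no scaling. The paired analysis, with the mouse as replicate block, gave 10959 genes and the same fit with no replicate block 9584. With no filter 15 lists lay above the median of all genes in place of 25, and with only genes measured on all 12 arrays 19.

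Leaving out 1 mouse gave -16.3 to -14.1 points for the share above background, -0.17 to -0.13 for the width of the distribution and -0.0213 to -0.0183 for the replicate-spot SD, each with the smallest p that 5 mice allow (exact, 0.0625). The width between the 25th and the 75th percentile was -0.0398 (exact p = 0.1875), and the replicate-spot SD of net signals -0.0261 (exact p = 0.0625). The brightest of 5 signal groups minus the dimmest was -0.18, -0.26 when ordered by two-colour signal and -0.38 after quantile normalisation.

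Signs turned for these genes, where the cause was not tested. With the percentile over all probes Alb was 0.23, Apoa1 0.27, Cyp2e1 0.12, Glul 0.14 and Gapdh 0.11. With no scaling they were 0.44, 0.47, 0.32, 0.34 and 0.32, Trp63 0.15 and Mup2 0.15. With quantile normalisation Alb was 0.34, Apoa1 0.25 and Cyp2e1 0.13, and after normexp 0.19, 0.24 and 0.18, with Mup2 0.017. At the same slide position Apoa1 was 0.0019. Leaving out 1 mouse, Cps1 ran from -0.0092 without control mouse 1 (-0.0011 without control mouse 3) to 0.16 without phenobarbital mouse 2. With the session as a term Mup3 was 0.20, Mup20 -0.0057, Cyp2c55 -0.019, Cps1 -0.0503, Glul 0.0835, Actb -0.20, Rplp0 -0.014 and Krt19 -0.16. Dim probes limit the rest: 2172 tested genes carried a floor value on at least 1 array at 1.5X.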

Other observations

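A few smaller lists were not described above. Of 29 tested phase II conjugation enzymes 9 were higher at 1.5X and 5 lower, with a median of 0.14, against -0.13 over all tested genes. Ugdh, which makes the sugar donor of glucuronidation, was higher by 1.19 in 6 of 6 mice, and the glucuronosyltransferases Ugt1a6a and Ugt2b36 by 1.14 and 0.95. Of 12 noncoding RNA genes 4 were higher and 5 lower. H19, an imprinted fetal transcript, was above background on 6 arrays at 1X and none at 1.5X. Of 8 interferon-stimulated genes 3 were higher and 2 lower, and of 11 immediate early and stress genes 4 were higher and 1 lower, with the heat shock protein Hspb1 higher by 1.37 and the phosphatase Dusp1 by 1.01.

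Of 11 pancreas genes with a probe, 10 were above background on all arrays at 1X and 8 at 1.5X. Cpb1, a carboxypeptidase of pancreatic juice, ran from -1.10 to 1.72 over the mice at 1X and from -0.29 to 2.95 at 1.5X, and was higher at 1.5X by 1.10 in 6 of 6 mice. Ins2, which encodes insulin, was lower by -1.82, with 1 mouse near its 1X value, and was above background on 5 arrays at 1.5X. Of 3 tested fat and muscle genes 2 were lower, the adipose hormone Retn by -1.76 and the muscle actin Acta1 by -1.08. Acta1 was above background on 2 arrays at 1.5X, and a second Retn probe was above background on no array. Of 3 red cell genes 2 were lower, with the anion exchanger Slc4a1, above background on 2 arrays at 1.5X, at -1.88. Acta1, Slc4a1 and Ins2 entered the test through 1X, which sets or favours their direction.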
